A study of Rattus norvegicus with 18 samples.

Results

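Depdc7, Plag1, Sp4, Arg2, Nr4a3, Tchh, Serping1 and Cpm are 8 genes whose expression in rat kidney cells was among the most reduced after 6 h of aristolochic acid. They were chosen from the 6 h arrays themselves as large falls, by the platform's single gene symbol, so their 6 h difference is a description and carries no test. The platform gave them 13 of its 31099 probe sets, and they make up 8 of 14217 named genes. All 8 had a probe set past the filter on low values, which asked for log2 4 on 3 arrays and kept 9015 genes. For 4 of them (Sp4, Nr4a3, Tchh and Cpm) no array of 24 or 72 h reached log2 4, so they passed through the 6 h arrays alone. Arg2 reached it on 2 of those 12 arrays, both of AA at 72 h, and also needed the 6 h arrays. The other 3 (Depdc7, Plag1 and Serping1) would have passed without them.

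The cells were NRK-52E, an established rat kidney tubular line, so the arrays compare cultures of a single line and not animals. Confluent wells received aristolochic acid (AA), the nitroaromatic toxin of birthwort plants that is reduced in cells to a DNA-binding form, at 1.65 µM in 0.1% DMSO. Control wells received 0.1% DMSO alone, so every group carried the solvent. RNA was taken after 6, 24 or 72 h, with 3 arrays for each of the 6 groups, called DMSO or AA with the hour. The labels name the 3 samples biological replicates and do not tell whether they came from separate passages or plates, so every p-value here covers only the spread among these arrays, which may be technical.

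The 8 genes have no single pathway in common. Of these, 3 encode DNA-binding regulators. Nr4a3 is an orphan nuclear receptor of the immediate early kind, made within a short time of a stimulus and lost soon after. Sp4 is a zinc finger factor of the Sp family, which binds GC boxes in promoters, and Plag1 is a zinc finger factor known as an oncogene of salivary adenomas and as an activator of Igf2. Arg2 is the mitochondrial arginase, which splits arginine into ornithine and urea. Cpm is a membrane-anchored carboxypeptidase that trims a basic residue from the end of peptides such as bradykinin, and Serping1 is the C1 inhibitor, which blocks the complement proteases C1r and C1s and plasma kallikrein. Tchh is trichohyalin, a structural protein of the hair follicle, and Depdc7 is a DEP domain protein of which little is known.

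The RefSeq promoter table (GRCr8, 250 bases before to 50 after the annotated start) matched 3 of the 8, Sp4, Cpm and Tchh. They are shown because no other promoter of the 8 was available there and because Sp4 encodes a GC box factor. Their highest mean in DMSO was at 6 h, but so it was for 7 of the 8 genes, and a link between motifs and course was not tested. Capitals mark the GC box GGGCGG and the TATA box TATAAA on either strand, and each line reads 5′ to 3′ on the gene's strand.
Sp4, chr6:145395065-145395364, minus strand: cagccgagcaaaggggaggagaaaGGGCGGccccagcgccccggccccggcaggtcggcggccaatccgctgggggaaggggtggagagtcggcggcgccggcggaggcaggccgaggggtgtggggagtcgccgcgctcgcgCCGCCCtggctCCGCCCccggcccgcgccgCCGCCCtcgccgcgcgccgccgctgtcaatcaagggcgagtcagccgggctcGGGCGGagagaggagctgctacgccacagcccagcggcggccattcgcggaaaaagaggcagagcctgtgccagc
Cpm, chr7:55111349-55111648, plus strand: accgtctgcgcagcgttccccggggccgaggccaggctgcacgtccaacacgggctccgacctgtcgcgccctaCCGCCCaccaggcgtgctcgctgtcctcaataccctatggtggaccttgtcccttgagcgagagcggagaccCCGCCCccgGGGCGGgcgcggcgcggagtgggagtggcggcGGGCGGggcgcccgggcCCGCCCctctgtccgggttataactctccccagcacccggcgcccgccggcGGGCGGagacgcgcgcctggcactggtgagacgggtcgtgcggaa
Tchh, chr2:181786859-181787158, plus strand: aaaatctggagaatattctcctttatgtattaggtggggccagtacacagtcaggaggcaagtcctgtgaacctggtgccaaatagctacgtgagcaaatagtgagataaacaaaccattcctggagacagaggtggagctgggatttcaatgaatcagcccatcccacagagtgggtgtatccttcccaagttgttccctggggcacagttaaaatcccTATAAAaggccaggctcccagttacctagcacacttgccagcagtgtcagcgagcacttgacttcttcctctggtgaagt
The promoters of Sp4 and Cpm were rich in G and C, at 77.0% and 75.0%, and each held 41 CpG. The Tchh promoter held 48.3% G and C and 2 CpG, near the median of 51.7% and below that of 7 CpG over all 33469 promoters. The GC box occurred 5 times for Sp4 and 6 times for Cpm, with no overlap between matches, and was not in the Tchh window. Of all promoters, 33.1% held it. The TATA box occurred once, in Tchh, with its first base at -30, and 14.2% of all promoters held it. Of the other motifs searched on both strands, CCAAT (37.5% of promoters) was found in Sp4 and the AP-1 site TGANTCA (7.33%) in Tchh. The cAMP response motif TGACG (21.2%), the NR4A element AAGGTCA (4.61%) and the E-box CACGTG (6.42%) were in none of these 3 windows. A match is a description of the letters and not a measured binding site.

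**Figure D1:**
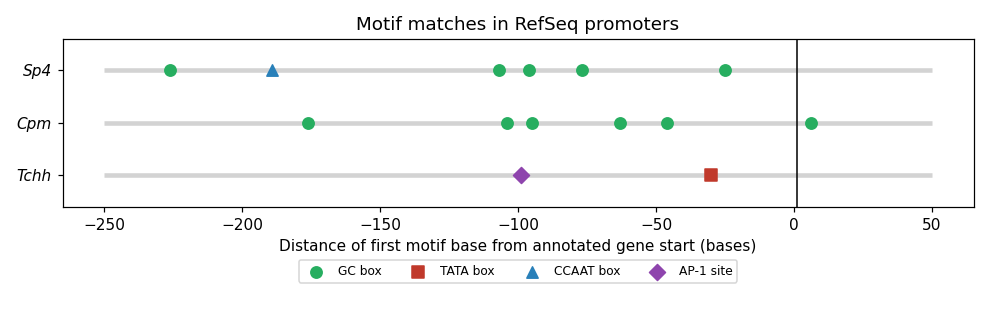
Motif matches in the RefSeq promoters of Sp4, Cpm and Tchh; the x axis is the distance in bases of a match's first base from the annotated start (vertical line), and each symbol is a motif. GC boxes lie along the Sp4 and Cpm promoters (5 and 6 matches), while Tchh has a TATA box at -30 and an AP-1 match.

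Values are the authors' log2 expression values, in which 1 unit is a doubling. In each array 43.1% to 44.5% of values lay under log2 3, and a group mean under log2 4 is called near the floor, where a difference depends on the background correction. Array medians ran from log2 4.03 to 4.20. In AA 6 h they were 4.03 to 4.08 and in DMSO 6 h 4.11 to 4.16 (two-sided exact permutation p = 0.1, the smallest that 3 against 3 arrays allow), and centring each array moved the median gene at 6 h from 0.01 to 0.09. On the fourth principal component, with 5.48% of the variance, AA 6 h replicate 3 lay at -37.34 and its partners at -12.87 and -19.76. DMSO 6 h replicate 3 lay at 28.95 and its partners at 16.98 and 16.9. Of the genes listed for kidney epithelium, Krt8 (mean log2 13.57), Vim (14.92) and Cdh2 (7.40) were above the floor and Krt18, Epcam, Cdh1, Cdh16 and Pax8 were near it. Vim and Cdh2 are not particular to epithelium. Of 7 proximal tubule markers only Aqp1 and Ggt1 passed the filter, and Lrp2, Cubn, Slc34a1, Anpep and Hnf4a did not. Fibroblast collagen genes were present (Col1a1 9.70, Col1a2 10.55, Col3a1 14.30), while Dcn, Pdgfra, Pdgfrb and Thy1 lay near the floor, as did Pecam1, Kdr and Vwf of endothelium and Ptprc and Itgam of leukocytes. Tek, Cd68 and Cd14 passed the filter, the last at 11.65. The hair follicle and keratinocyte markers Krt5, Krt14, Krt25, Krt71 and Ivl were near the floor on average, and Krt10 was at 5.52. In such bulk RNA, fewer cells of a type and less RNA per cell cannot be told apart.

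At 6 h all 8 genes were lower in AA, by 2.80-fold (Cpm) to 3.70-fold (Depdc7), and the 3 AA arrays lay below the 3 DMSO arrays for each of them. The median difference of the 8 was -1.78 on the log2 scale, against 0.01 over all genes tested. Of all genes tested, 36.4% had arrays that did not overlap at 6 h, and 17.6% of all genes tested had arrays apart and lower in AA, but the rule used this contrast and nothing is read from the comparison. The 8 genes held ranks 2 to 10 from the bottom of 9015 differences, without rank 1, Hey2 (-2.02), and rank 9, Zfp819 (-1.49). Just inside lay Serping1 at -1.57 and Cpm at -1.49, and just outside lay Zfp709l1 at -1.47, Rab40b at -1.43 and Fam120c at -1.40. In AA, 6 of the 8 were near the floor, all but Depdc7 and Plag1.

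Among the regulators, Nr4a3 was measured at log2 4.58, 5.10 and 4.58 on the DMSO 6 h arrays and at 2.79, 3.32 and 2.70 on the AA 6 h arrays. Every DMSO array was well above every AA array, and the difference of means was -1.81 ± 0.21 (standard error, n = 3 a group). Sp4 was at 5.14, 5.28 and 6.07 in DMSO 6 h and at 3.69, 3.62 and 3.53 in AA 6 h. The AA values of Sp4 were tight and 1 DMSO array stood above the others, for a difference of -1.88 ± 0.29. Plag1 was at 7.42, 7.48 and 7.67 in DMSO 6 h and at 6.15, 6.12 and 5.06 in AA 6 h. It stayed above the floor in both groups, with 1 AA array well below its partners, and the difference was -1.75 ± 0.24.

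Among the enzymes and secreted proteins, Arg2 was at 4.62, 3.97 and 4.87 in DMSO 6 h and at 2.80, 2.67 and 2.38 in AA 6 h, a difference of -1.87 ± 0.37. The DMSO level of this arginase straddled log2 4 and the AA level lay on the floor. Cpm was at 4.16, 4.82 and 5.01 in DMSO 6 h and at 3.11, 3.58 and 2.84 in AA 6 h, a difference of -1.49 ± 0.24. Serping1 was at 5.71, 5.57 and 4.95 in DMSO 6 h and at 3.94, 4.79 and 2.80 in AA 6 h, a difference of -1.57 ± 0.34. For the C1 inhibitor gene the highest AA array came close to the lowest DMSO array. Tchh was at 5.38, 5.64 and 4.80 in DMSO 6 h and at 3.51, 4.51 and 2.91 in AA 6 h. The difference was -1.63 ± 0.30. Krt10, the only tested gene of the hair and keratinocyte markers, was lower at 6 h (-0.72). The listed markers under the filter were near the floor and not lower: Krt14 (0.58), Krt25 (0.08), Ivl (0.07), Krt5 (0.02) and Krt71 (0.01). The markers of this list thus gave no common direction. Of the other cell type markers, Ggt1 (1.27), Krt8 (0.50), Vim (0.32) and Cd14 (0.29) were higher in AA at 6 h. The part of these markers in the values of the 8 genes was not tested. Depdc7 was at 6.78, 6.99 and 7.49 in DMSO 6 h and at 5.71, 5.47 and 4.43 in AA 6 h, a difference of -1.89 ± 0.29. Trichohyalin and Depdc7 thus had wide spreads within AA, with replicate 3 lowest.

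That array, AA 6 h replicate 3, was the lowest of the AA 6 h arrays for 8 of the 8 genes. A low AA 6 h array is favoured by the choice of the genes, and the share over all genes was not counted, so nothing is read from this count. DMSO 6 h replicate 3 was the highest of the DMSO 6 h arrays for Depdc7, Plag1, Sp4, Arg2 and Cpm, and not for Nr4a3, Tchh and Serping1. Without AA 6 h replicate 3 the differences were -1.84 for Sp4, -1.75 for Arg2, -1.70 for Nr4a3, -1.50 for Depdc7, -1.39 for Plag1, -1.32 for Cpm, -1.26 for Tchh and -1.05 for Serping1. The median of the 8 was then -1.45, still a fall for each gene, and Serping1 moved from a 2.96-fold to a 2.06-fold difference. The 3′ minus 5′ difference of the beta-actin control probe sets, a sign of RNA integrity and labelling, averaged log2 1.17 in AA 6 h and 1.15 in DMSO 6 h (two-sided exact permutation p = 1). On AA 6 h replicate 3 it was 0.98, the lowest of the 18 arrays, against 1.27 and 1.26 on the other AA 6 h arrays, and its part in the lower values of that array was not tested.

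**Figure D2:**
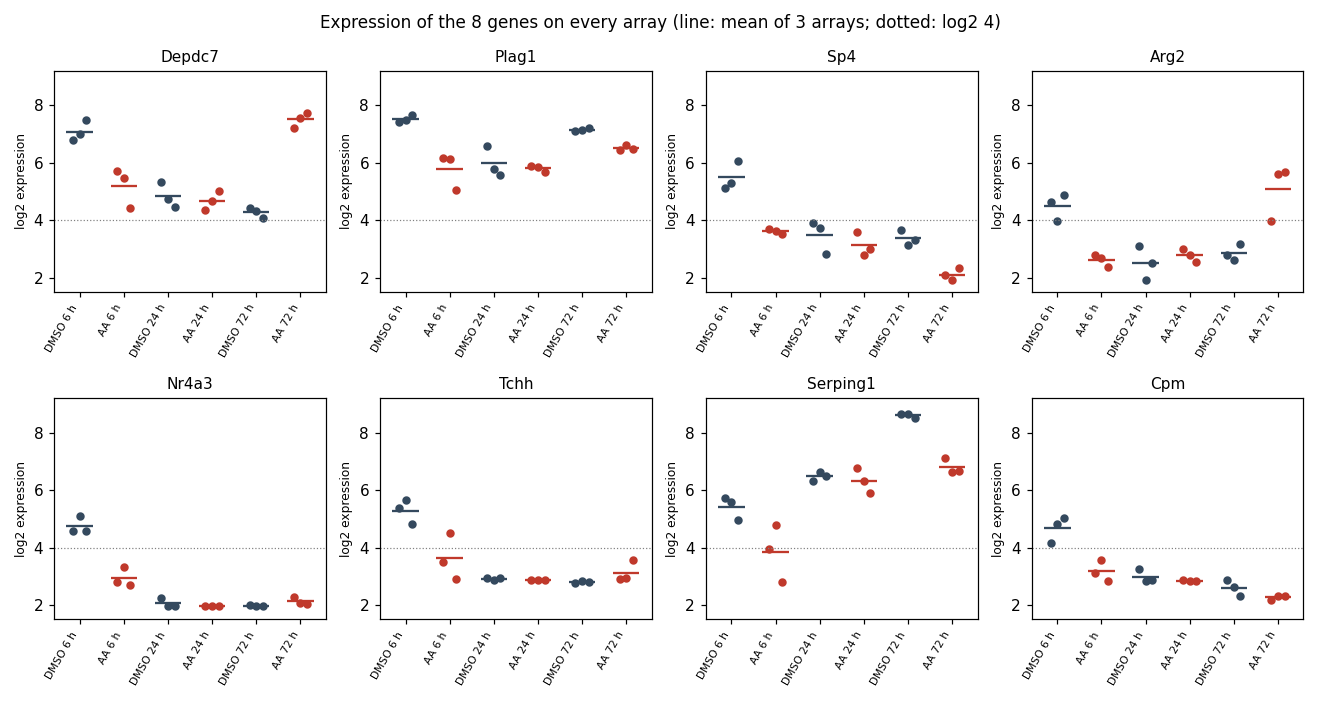
Log2 expression of the 8 genes on each of the 18 arrays (1 point an array, replicates 1 to 3 from left to right; line, mean of 3; dotted line, log2 4), with DMSO in dark blue and AA in red at 6, 24 and 72 h. At 6 h the AA points lie below the DMSO points in every panel, at 24 h the groups overlap, and at 72 h Depdc7 and Arg2 lie higher in AA.

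The further probe sets gave a mixed picture. Plag1 had another probe set at 6.45, 6.67 and 7.12 in DMSO 6 h and 5.65, 5.43 and 4.30 in AA 6 h, a difference of -1.62, close to that of the first. The further Depdc7 probe set was at 4.47, 4.63 and 4.44 in DMSO 6 h and at 3.70, 3.94 and 3.27 in AA 6 h. Its difference of -0.87 was in the same direction and smaller, at a lower signal. The further Cpm probe set lay between log2 1.94 and 2.39 on all 18 arrays, on the floor and with overlapping groups at 6 h (-0.14). Nr4a3 had a pair of further probe sets, and on the 18 arrays one lay between log2 2.08 and 2.14 and the other between 2.37 and 2.43. They carried no signal in any group, so the Nr4a3 values rest on 1 probe set of 3 and the Cpm values on 1 of 2.

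**Figure D3:**
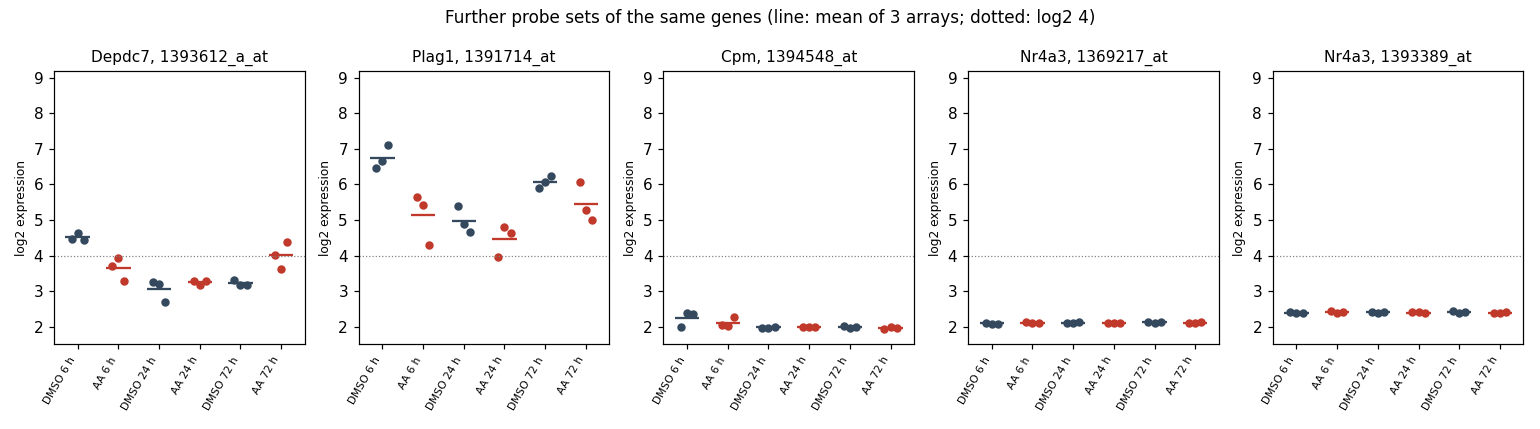
Log2 expression on the 18 arrays of the 5 further probe sets of Depdc7, Plag1, Cpm and Nr4a3 (points, arrays; line, mean of 3; dotted line, log2 4). The Plag1 and Depdc7 probe sets repeat the order of the groups at 6 h, and those of Cpm and Nr4a3 lie flat between log2 1.94 and 2.43.

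In DMSO the level at 6 h was itself a high point for most of the 8. The 3 DMSO 6 h arrays lay above all 15 other arrays for Plag1, Sp4, Nr4a3, Tchh and Cpm, 5 of the 8. The share of all genes with such arrays was not counted, and the rule used the AA 6 h arrays among the 15, so nothing is read from this count. From 6 to 24 h in DMSO the difference was -2.69 for Nr4a3, -2.36 for Tchh, -2.25 for Depdc7, -2.02 for Sp4, -1.98 for Arg2, -1.68 for Cpm and -1.53 for Plag1, with arrays apart in all of these 7, while Serping1 was 1.06 higher at 24 h. Over all genes 32.9% had DMSO 24 h arrays that lay wholly below those of 6 h. Since the choice of genes used the DMSO 6 h arrays, high values there are favoured by the choice, and these differences have no test. In AA the change from 6 to 24 h was smaller for these 7, between -0.98 (Nr4a3) and 0.16 (Arg2). For 6 of the 8 the DMSO 24 h mean was below the AA 6 h mean, Plag1 and Serping1 excepted. Of these 6, only Nr4a3 had arrays apart, and all but Depdc7 were near the floor in both groups. The order of these means is therefore not read, and its share over all genes was not counted.

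At 24 h the DMSO values of Nr4a3 were 2.25, 1.95 and 1.98 and those of AA were 1.96, 1.96 and 1.96, which is the floor of its probe set. Sp4 was at 3.91, 3.72 and 2.81 in DMSO 24 h and at 3.58, 2.79 and 3.01 in AA 24 h. Plag1 was at 6.59, 5.79 and 5.59 in DMSO 24 h and at 5.89, 5.87 and 5.69 in AA 24 h. For all 3 regulators the groups overlapped. Arg2 was at 3.10, 1.90 and 2.51 in DMSO 24 h and at 3.01, 2.78 and 2.54 in AA 24 h. Cpm was at 3.25, 2.84 and 2.86 in DMSO 24 h and at 2.85 on each AA 24 h array. Tchh lay between 2.88 and 2.93 on all 6 arrays. These 3 genes were near the floor in both groups, which limits how far a lower level could be seen. Serping1 was at 6.30, 6.62 and 6.49 in DMSO 24 h and at 6.78, 6.32 and 5.88 in AA 24 h. Depdc7 was at 5.33, 4.74 and 4.45 in DMSO 24 h and at 4.34, 4.68 and 5.03 in AA 24 h. Both were measured above the floor, with overlapping groups.

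None of the 8 passed limma's test of AA against DMSO at 24 h, 0 at adjusted p under 0.05 and 0 at an unadjusted p under 0.05, where 2.09% of all 9015 genes passed (1.81% higher and 0.277% lower). The differences lay between -0.35 (Sp4, 95% interval -0.96 to 0.25) and 0.28 (Arg2, -0.51 to 1.06). For the 3 genes measurable at 24 h the intervals were -0.76 to 0.45 for Depdc7, -0.68 to 0.33 for Plag1 and -0.85 to 0.56 for Serping1. Smaller differences in either direction lie within these intervals. The further probe sets did not pass either, with overlapping groups. That of Depdc7, near the floor, was at 0.20 (limma adjusted p = 0.824 among all probe sets, n = 3). That of Plag1 was at -0.51 (95% interval -1.21 to 0.19, limma adjusted p = 0.65, n = 3). The further probe sets of Nr4a3 and Cpm were under the filter.

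At 72 h the 8 genes took different courses. Depdc7 was at 4.43, 4.32 and 4.07 in DMSO 72 h and at 7.22, 7.57 and 7.75 in AA 72 h. It was 9.44-fold higher in AA, a difference of 3.24 ± 0.29 (limma adjusted p = 2.24e-08, n = 3 a group, 3 of 3 arrays higher). On this probe set the AA level overlapped that of DMSO 6 h. The further Depdc7 probe set moved the same way by less, from 3.30, 3.18 and 3.18 to 4.01, 3.63 and 4.39 (0.79, limma adjusted p = 0.00516 among all probe sets, n = 3), and the mean over both Depdc7 probe sets was 2.01 higher. Arg2 was at 2.78, 2.62 and 3.17 in DMSO 72 h and at 3.96, 5.62 and 5.67 in AA 72 h. The arginase gene was thus above every DMSO 72 h array on all 3 AA arrays, with replicate 1 well below the others, for a difference of 2.22 ± 0.37 from a level near the floor (limma adjusted p = 6.92e-05, n = 3). Arg2 passed the filter only through DMSO 6 h arrays and those of AA 72 h, the group called higher here.

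Serping1 was at 8.64, 8.65 and 8.50 in DMSO 72 h and at 7.11, 6.62 and 6.65 in AA 72 h. The C1 inhibitor gene was 3.50-fold lower in AA, a difference of -1.81 ± 0.34 (limma adjusted p = 0.000199, n = 3, 3 of 3 arrays lower). Sp4 was at 3.67, 3.13 and 3.30 in DMSO 72 h and at 2.08, 1.92 and 2.32 in AA 72 h. It was lower in AA by 1.26 ± 0.29 with both groups near the floor (limma adjusted p = 0.00135, n = 3). Only the DMSO 6 h arrays of Sp4 reached log2 4, so it was tested at 72 h because of arrays that chose it. Plag1 was at 7.12, 7.13 and 7.19 in DMSO 72 h and at 6.45, 6.63 and 6.47 in AA 72 h. Its groups were tight and apart, and the difference of -0.63 ± 0.24 passed narrowly (limma adjusted p = 0.0392, n = 3). That call ended without any single array of the AA or DMSO 72 h groups (adjusted p from 0.0569 to 0.0907) and the further Plag1 probe set, at 5.89, 6.07 and 6.24 against 6.06, 5.29 and 5.00, did not pass (-0.62, limma adjusted p = 0.141, n = 3).

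The remaining 3 genes did not pass at 72 h. Nr4a3 was at 1.99, 1.97 and 1.98 in DMSO 72 h and at 2.29, 2.07 and 2.03 in AA 72 h (0.15, limma adjusted p = 0.583, n = 3). Tchh was at 2.75, 2.85 and 2.80 in DMSO 72 h and at 2.89, 2.93 and 3.57 in AA 72 h (0.33, limma adjusted p = 0.387, n = 3). Cpm was at 2.87, 2.63 and 2.32 in DMSO 72 h and at 2.18, 2.32 and 2.32 in AA 72 h (-0.33, limma adjusted p = 0.268, n = 3). All 3 lay near the floor in both groups. In all, 5 of the 8 passed at 72 h, 2 higher and 3 lower, where 47.2% of all genes passed, 27.4% higher and 19.8% lower, and the count is to be read against that background. Among those that passed, Sp4 and Arg2 would not have been tested without the 6 h arrays. The median of the 8 was -0.09 and that of all genes 0.05. The beta-actin 3′ minus 5′ difference was log2 1.85 to 2.16 in AA 72 h and 1.29 to 1.45 in DMSO 72 h (two-sided exact permutation p = 0.1, the smallest possible), and its part in these differences was not tested. Of the cell type markers, Krt8 (0.55) and Cd68 (1.90, near the floor in DMSO) were higher in AA at 72 h and Aqp1 (-2.33), Tek (-2.02), Krt10 (-0.42), Cdh2 (-0.33) and Col3a1 (-0.32) were lower, and their part was not tested either.

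**Figure D4:**
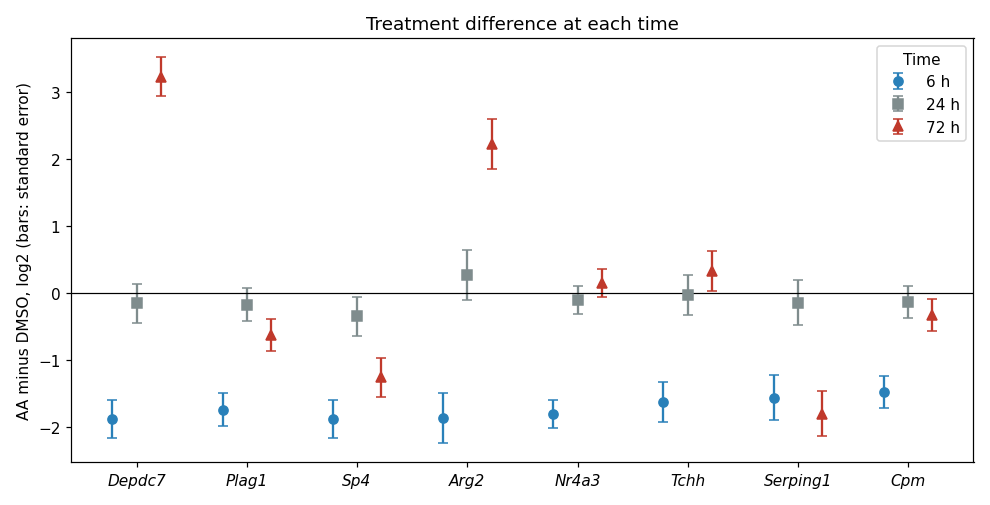
AA minus DMSO on the log2 scale for the 8 genes at 6 h (circles), 24 h (squares) and 72 h (triangles); bars are standard errors of the fit, 3 arrays a group. The 6 h values, which chose the genes, lie between -1.89 and -1.49, the 24 h values lie around 0, and at 72 h Depdc7 (3.24) and Arg2 (2.22) are above 0 and Serping1 (-1.81) and Sp4 (-1.26) below. At 72 h Sp4 is near the floor in both groups and Arg2 in DMSO.

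The test of the change in effect from 24 to 72 h, which contrasts no 6 h array, passed for 3 of the 8, 2 higher and 1 lower, against 32.4% of all genes (18.7% higher and 13.7% lower). Among these 3, Arg2 needed the 6 h arrays to pass the filter. The effect rose by 3.40 ± 0.41 for Depdc7 (limma adjusted p = 3.74e-06, n = 3) and by 1.95 ± 0.53 for Arg2 (limma adjusted p = 0.00829, n = 3), and it fell by 1.66 ± 0.48 for Serping1 (limma adjusted p = 0.0117, n = 3). It did not pass for Sp4 (-0.91, limma adjusted p = 0.0961, n = 3) or Plag1 (-0.46, limma adjusted p = 0.33, n = 3), so their effects at 24 and 72 h are not shown to differ. On the further Depdc7 probe set the change was 0.59 and did not pass (limma adjusted p = 0.143 among all probe sets, n = 3). The Depdc7 result thus rests on 1 of its probe sets.

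Within DMSO, 2 of the 8 passed between 24 and 72 h, both higher, where 34.3% of all genes did (17.2% higher and 17.1% lower). Serping1 was higher at 72 h by 2.13 ± 0.34 (limma adjusted p = 7.47e-05, n = 3) and Plag1 by 1.16 ± 0.24 (limma adjusted p = 0.00105, n = 3). The further Plag1 probe set rose too, by 1.09 (limma adjusted p = 0.0166 among all probe sets, n = 3). Depdc7 did not pass at -0.57 (limma adjusted p = 0.142, n = 3), although its 72 h arrays all lay below those of 24 h. The further Depdc7 probe set was at 0.17, the other direction, with overlapping arrays (limma adjusted p = 0.576 among all probe sets, n = 3). Within AA, 4 of the 8 passed between 24 and 72 h, 3 higher and 1 lower, where 52.7% of all genes did (30.0% higher and 22.8% lower). Depdc7 was higher at 72 h by 2.83, Arg2 by 2.30 and Plag1 by 0.70, and Sp4 fell by 1.02. Here too Arg2 and Sp4 were tested only because of the 6 h arrays. Serping1 was 0.47 higher in AA at 72 h and did not pass (limma adjusted p = 0.253, n = 3), against its rise of 2.13 in DMSO. These comparisons within DMSO and AA use the same arrays as the treatment comparisons at 24 and 72 h.

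The group levels are ordered here on each gene's probe set with the highest mean. Depdc7 was highest in AA at 72 h, closely followed by DMSO at 6 h with overlapping arrays. Its other 4 groups were lower and overlapped from one to the next, with DMSO at 72 h lowest. Arg2 had the same pair on top, also with overlapping arrays, and 4 groups near the floor below it. Plag1 was highest in DMSO at 6 h and next in DMSO at 72 h, each apart from the group below, and its lower 4 groups overlapped from one to the next. Serping1 was highest in DMSO at 72 h, and its middle 3 groups (AA at 72 h and both groups of 24 h) overlapped. Both 6 h groups of Serping1 lay below those, apart from each other and from the rest. Sp4 had DMSO at 6 h on top, apart from the other groups, which were all near the floor and are given no order. Nr4a3, Tchh and Cpm were highest in DMSO at 6 h, and all of their other groups lay near the floor. The further probe sets gave other orders for Depdc7 and Plag1. On that of Depdc7, DMSO at 6 h was on top (4.51), apart from AA at 72 h (4.01). On that of Plag1, DMSO at 72 h (6.07) and AA at 72 h (5.45) overlapped.

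The likeness of these courses was described by Pearson's r over the 18 arrays, which share 6 groups, so that r mainly reflects the group means. They include the 6 h arrays that chose the genes, and Nr4a3, Tchh and Cpm were near the floor in every group but DMSO at 6 h, so likeness among the 8 in part restates the choice. Among the 8 genes Nr4a3 and Tchh were most alike (r = 0.957), followed by Cpm with Sp4 (0.927) and with Nr4a3 (0.917), and Depdc7 with Arg2 (0.883). Serping1 was unlike the others, with r from -0.47 to 0.39. Over all tested genes, the nearest to Depdc7 were Brf2 (0.949) and Btbd10 (0.946), and to Arg2 Akirin1 (0.924) and Tapt1 (0.906). Plag1 was nearest to Psip1 (0.953) and Zcchc14 (0.930), Serping1 to Arhgap44 (0.967) and Sh3yl1 (0.963), and Sp4 to Mindy3 (0.936) and Mgat4a (0.931). Besides each other, Nr4a3 was nearest to Limk1 (0.967) and Tchh to Inpp1 (0.946), and Cpm was nearest to Rab3ip (0.976) and Slc23a2 (0.949). In RefSeq the 8 genes span 8.36 kb (Tchh) to 65.3 kb (Sp4), on either side of the median of 24.2 kb of the tested genes.

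Relatives of the 8 by family or pathway, 60 genes of which 38 were tested, were read in the same fit. At 6 h, 7 were higher and 7 lower in AA, against 24.5% of all genes called (12.1% higher and 12.4% lower). With arrays centred these were 8 and 5, and over all genes the split of 1091 higher and 1120 lower became 1706 and 638. Without AA 6 h replicate 3, 2 were higher and 2 lower, Ier3, Arg1, Klf4 and Azin1 being the ones left. At 24 h, 2 were higher and 0 lower against 2.09% of all genes. At 72 h, 14 were higher and 7 lower against 47.2%.

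In the Sp and KLF family, Klf4, a zinc finger factor of epithelial differentiation, was lower at 6 h (-1.27, limma adjusted p = 0.000163, n = 3) and higher at 72 h by 2.25 (limma adjusted p = 4.31e-10, n = 3). Sp1 (-0.19) and Sp2 (-0.39) did not pass at 6 h or at 72 h, and Sp3 was under the filter. Klf6 was higher at 72 h by 0.68 and at 6 h by 0.40, the latter lost in 5 of 28 other settings. In the PLAG family Plagl1, an imprinted zinc finger factor, was at -0.29 at 6 h, a call lost in 6 settings, and Plagl2 at 0.37 at 72 h, lost in 2. Of the growth factor genes tied to Plag1, Igf2 was under the filter, Igf1r was lower at 72 h (-0.88, limma adjusted p = 2.02e-06, n = 3) and Igf2r passed at no time.

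Of the NR4A group, Nr4a1 was under the filter. Nr4a2 was at 0.17 at 6 h (limma adjusted p = 0.486, n = 3) and was higher at 72 h by 1.29 (limma adjusted p = 4.27e-06, n = 3). Of 7 tested NR4A and immediate early genes, 3 rose and 0 fell at 6 h, with a median of 0.30, and 6 rose at 72 h, with a median of 0.88. Atf3, a stress-induced factor, was higher by 5.27 at 72 h, and Egr1 by 0.88. Fos did not pass at any time, with -0.43 at 6 h (limma adjusted p = 0.0638, n = 3). Fosl1 was higher by 1.61 at 6 h from near the floor and Junb by 0.44, calls lost without AA 6 h replicate 3. Fosl1 at 72 h (1.30, near the floor in DMSO) and Junb (0.42) lost theirs in 6 of 28 and 3 of 30 settings, and Ier3 was higher at all 3 times (0.30, 0.47 and 0.53).

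Around Arg2, the cytosolic arginase gene Arg1 was higher at 6 h by 0.49 (limma adjusted p = 0.0118, n = 3), a call lost without DMSO 6 h replicate 3 and with the 6 h arrays alone, and lower at 72 h (-0.85, limma adjusted p = 2.84e-05, n = 3), the opposite directions to Arg2. At 72 h the polyamine genes Odc1 (0.81), which makes putrescine from ornithine, Sat1 (0.71), which acetylates polyamines, and Srm (0.30), the spermidine synthase gene, were higher, the last call being lost without AA 72 h replicate 2 and without DMSO 72 h replicate 3. At 6 h Azin1, an antizyme inhibitor, was lower (-0.43), a call lost at -0.12 when its probe sets were averaged, and Odc1 at -0.22 lost its call in 21 of 28 settings. Asl and Sms, at 0.47 and 0.46, lost theirs without AA 6 h replicate 3, and Oat and Amd1 passed at no time.

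The complement proteases that the C1 inhibitor blocks moved with Serping1 in part. C1s was lower at 6 h (-0.75, -0.41 and no longer called without AA 6 h replicate 3) and at 72 h (-0.65, limma adjusted p = 0.0147, n = 3, lost without AA 72 h replicate 1), and C1r was lower at 72 h (-0.23, limma adjusted p = 0.00816, n = 3). Cd55, which speeds the decay of complement convertases, was lower at 72 h (-2.77, limma adjusted p = 1.64e-09, n = 3) and clusterin, Clu, was higher (0.67). Serpinf1, at -0.57 at 6 h, lost its call without AA 6 h replicate 3, and C3 and Cfi were under the filter. Of 4 tested carboxypeptidase genes, Cpq, a secreted dipeptidase, was lower at 72 h (-1.82, limma adjusted p = 2.72e-07, n = 3) and at 6 h (-0.68, lost in 3 settings). Cpd, Cpe and Cpz passed at no time, and the kinin receptor genes Bdkrb1 and Bdkrb2 were under the filter. Of the hair and cornified envelope genes, Tgm1, a cross-linking enzyme, was the 1 tested and was higher at 72 h by 0.83, and Tgm3, Krt14 and Ivl were under the filter. Of the DEP domain genes, Depdc1 was higher at 24 h by 0.76 and lower at 72 h (-0.63), and Depdc1b and Depdc5 passed at no time.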

How the data were processed

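The 18 arrays hybridised RNA from NRK-52E cells. The authors deposited a log2 expression value for every probe set of each array. The submitters' processing notes name GCRMA, a method that subtracts sequence-dependent background, normalizes arrays and summarises probes; it pulls weak probe sets to a floor near log2 2, which shrinks or inflates differences of low genes. Its version and settings were not given in the sources used here. Of 31099 probe sets 57 were controls, and the platform annotation gave 1 symbol to 20826, several to 436 and none to 9780. Names were updated by gene number through a RefSeq table of GRCr8 (20758 matched). A gene was represented by its probe set with the highest mean, and 9015 genes reaching log2 4 on 3 arrays were tested.

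All 18 arrays were fitted in R 4.3.3 with limma 3.58.1, with 6 group means, an intensity trend (12 residual and 7.27 prior degrees of freedom) and Benjamini-Hochberg adjustment over all genes of a comparison, with 0.05 as the threshold on the adjusted p-value. Further probe sets were read from the same fit over 16253 probe sets. The arrays' number limits the precision; the median replicate SD was 0.14. The 8 genes, the lists and the tests were chosen with earlier results of these data known. Named genes were the 8, their listed relatives, the 2 genes nearest to each by Pearson's r, and those around the edge of the rule. On simulated data, with changes in AA at 72 h among 9015 genes, 74.6% of 67 genes changed by log2 0.5, 94.0% of 67 changed by 1 and 100% of 66 changed by 2 were recovered, with 8 false calls among 187. The simulated noise was normal and independent, without a floor, and few genes changed, where 47.2% were called in the data. The rates check the code and do not give the power for the 8 genes. Same-numbered AA and DMSO arrays of a time had deviations correlated with r between -0.16 and 0.15 across genes, so the numbers were not treated as pairs. Promoter sequences are from RefSeq (GRCr8). The alternatives were other scalings, filters, probe set choices, subsets of arrays, no trend, a replicate block and leaving out each array.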

Additional observations from a re-analysis of the deposited data

Results flagged for a closer look

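The treatment effect differed between 24 and 72 h, by the interaction test of the fit, for Depdc7 (the log2 effect at 72 h less that at 24 h was 3.40), Arg2 (1.95) and Serping1 (-1.66). The further Depdc7 probe set did not pass (0.59, limma adjusted p = 0.143 among all probe sets, n = 3). Arg2 passed the filter only through arrays of DMSO at 6 h and AA at 72 h. Its other groups were near the floor, which limits what could be seen at 24 h.

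In addition, the 3 AA arrays lay wholly below DMSO at 6 h and wholly above it at 72 h for Depdc7, Arg2, Nr4a3 and Tchh. The effect at 72 h less that at 6 h was 5.13, 4.10, 1.96 and 1.96 for these genes in turn. These differences were not tested, since the 6 h arrays chose the genes, and at 72 h Nr4a3 and Tchh were near the floor in both groups and did not pass. For Nr4a3 and Tchh the 6 h differences, which the rule used, were -1.81 and -1.63, and those at 72 h were 0.15 and 0.33. The share of all genes with such a course was not counted.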

How the results depend on the processing

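The counts of called genes among the 8 were 0 at 24 h and 2 for DMSO between 24 and 72 h under every alternative run. At 72 h the count was 5, and 4 to 5 when single arrays were left out. Between 24 and 72 h in AA it was 4, and 3 to 5 when single arrays were left out, and for the change in effect it was 3 and lay between 2 and 3. With the 12 arrays of 24 and 72 h in both the fit and the filter, an alternative chosen after seeing the data, the 72 h count was 3 and the count between times in AA was 2; only 3 of the 8 genes remain in that fit, since the others pass the filter through 6 h arrays. The median 6 h difference lay between -1.96 and -1.45 when single 6 h arrays were left out. Depdc7 at 72 h was lowest, at 2.01, when its probe sets were averaged. Plag1 lost its 72 h call in 8 of 30 alternatives, and its call between 24 and 72 h in AA in 3 of 29. Cpm, at -0.58 between 24 and 72 h in AA (adjusted p = 0.0501), passed in 10 of 26. With the replicate block 0 of the 8 genes were called at 24 h and 5 at 72 h, and no call among the 8 changed. Over all genes, 1091 were higher and 1120 lower at 6 h; these were 422 and 478 without AA 6 h replicate 3, 715 and 699 without DMSO 6 h replicate 2, and 293 and 286 with the 6 h arrays fitted alone, when 1 relative was higher and 2 lower. No called value reversed. Values near log2 2 have no order, and they limit Nr4a3, Tchh, Cpm, Sp4 and Arg2.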
